A study of Drosophila melanogaster with 2 samples.

Results

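The trithorax group genes examined here were trx, ash1, ash2, brm, osa, mor, kis and Utx, 8 of 18277 annotated fruit fly genes, and the question was where the zinc finger protein Wdn was found along them. They were taken by name from the annotation of the dm6 genome. A peak belonged to a gene when its summit, the highest point of the peak, lay in the gene body or within 1 kb of a transcript start. Binding was measured by ChIP-seq, which sequences DNA recovered with an antibody, on whole Drosophila melanogaster embryos aged 0 to 24 h. The flies carried wings down (wdn) as an eGFP fusion and the antibody was against GFP, so the tagged protein was measured, in all cell types of the embryo together. Chromatin was sonicated to 200 to 800 bp. There was 1 group of 2 biological replicates and the control that the labels point to was not analysed here, so the members are described against all genes and all peaks. The deposited lists give no read counts, so the depth behind each value is unknown.

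Trithorax group proteins keep genes such as the homeotic genes active through many cell divisions, and they counteract silencing by Polycomb group proteins. Some of them move nucleosomes. Brm is the ATPase of the fly SWI/SNF complex, Mor is a core subunit that scaffolds it, Osa defines one form of the complex, and Kis is an ATPase of the CHD family. Others modify histones. Trx and Ash1 are histone methyltransferases, Ash2 is a shared subunit of the COMPASS methyltransferase complexes, and Utx removes methyl groups from the histone mark laid down by Polycomb repressive complex 2.

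Wdn peaks were found at 4 of the 8 genes, brm, osa, kis and trx, and at none of the other 4 in the main list, which is the thresholded list from both replicates. These 4 genes held 9 of its 3254 peaks. The strongest were 2 peaks inside osa and 1 at the promoter of brm. A further 4 peaks, 2 at trx and 2 at mor, met the same threshold in the ranked list but were missing from the main list, among them the strongest peak at any member. The threshold is the irreproducible discovery rate (IDR), which measures how well the rank of a peak holds between data sets, and a peak passed when its global IDR was at most 0.01, or at least 2 as a -log10 value. Of the 13 passing sites, 8 are given here as 101 bases of the dm6 reference around the summit, plus strand, because they are the promoter sites and the strongest intronic sites of the members. Capitals mark matches to the searched words described with the sequence results, and 3 of the 8 stretches (trx strongest and both of osa) hold none.
brm promoter, chr3L:15982950-15983050: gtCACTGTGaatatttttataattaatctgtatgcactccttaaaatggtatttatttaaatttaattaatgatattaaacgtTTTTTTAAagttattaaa
osa strongest intronic, chr3R:17704341-17704441: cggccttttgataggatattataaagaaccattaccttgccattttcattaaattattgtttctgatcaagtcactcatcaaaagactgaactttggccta
osa next intronic, chr3R:17700480-17700580: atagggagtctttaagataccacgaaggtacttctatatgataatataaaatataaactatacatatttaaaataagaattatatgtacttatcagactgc
trx strongest, not in the main list, chr3R:14283813-14283913: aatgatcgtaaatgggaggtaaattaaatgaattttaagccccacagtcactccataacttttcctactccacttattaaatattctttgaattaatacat
trx listed, chr3R:14278076-14278176: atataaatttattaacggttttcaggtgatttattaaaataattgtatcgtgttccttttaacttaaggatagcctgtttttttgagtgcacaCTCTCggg
mor promoter, not in the main list, chr3R:15972991-15973091: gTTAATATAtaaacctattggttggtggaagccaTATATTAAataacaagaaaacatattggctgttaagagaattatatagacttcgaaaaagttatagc
kis strongest, chr2L:223462-223562: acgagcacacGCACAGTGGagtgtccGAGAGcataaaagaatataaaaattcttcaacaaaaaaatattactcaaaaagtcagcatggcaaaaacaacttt
kis next, chr2L:224855-224955: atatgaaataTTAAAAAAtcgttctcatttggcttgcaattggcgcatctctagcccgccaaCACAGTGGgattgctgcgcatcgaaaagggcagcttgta

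**Figure D1:**
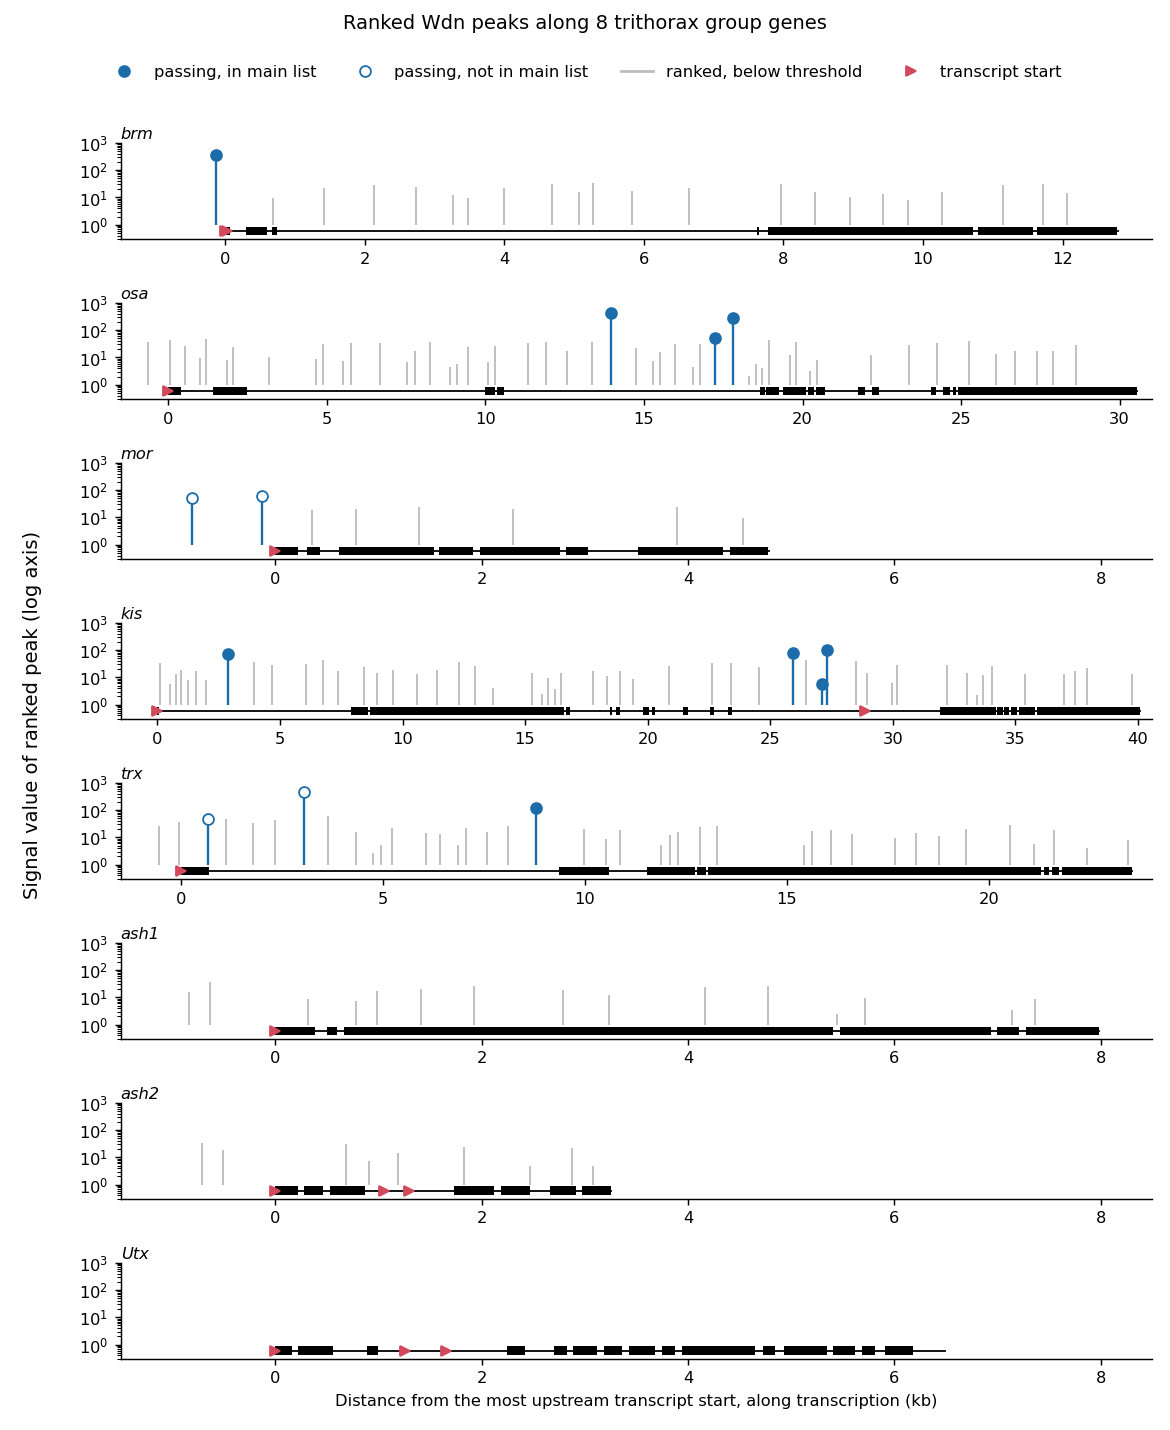
Signal value (log axis) of every ranked peak along the 8 genes, against distance in kb from the most upstream transcript start in the direction of transcription. Black boxes are exons of the longest transcript, filled circles are passing peaks in the main list, open circles are passing peaks that it lacks, grey lines are ranked peaks below the threshold, and red arrowheads are transcript starts. The circles of brm and mor lie upstream of the start and all but 1 of the others lie in introns, while ash1, ash2 and Utx have none.

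The count of 4 in 8 genes compares with 17.7% of all 18277 genes, and with 20.5% of 13968 protein-coding genes. All 8 members are protein-coding and several are long, with a median length of 10386 bp against 2165 bp over protein-coding genes. Long genes more often held a peak. Of protein-coding genes of 20 kb or more, 46.5% had a main-list summit by the same rule, and trx (23546 bp), osa (30533 bp) and kis (40089 bp) all did. In the class of 10 to 20 kb, brm (12788 bp) had one, against 37.6% of that class. None of the shorter members had one. These were ash1 (7983 bp) and Utx (6487 bp), in a class with 29.7%, and mor (4780 bp) and ash2 (3252 bp), in a class with 21.2%. In the main list, then, 4 of 4 members of 10 kb or more had a summit and 0 of 4 shorter ones did. The brm summit lay outside the gene body, 131 bp upstream of a start. Among the shorter members, mor had 2 passing peaks that the main list lacks, and the lists may be incomplete at Utx. A link with length within the members was not tested.

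**Figure D2:**
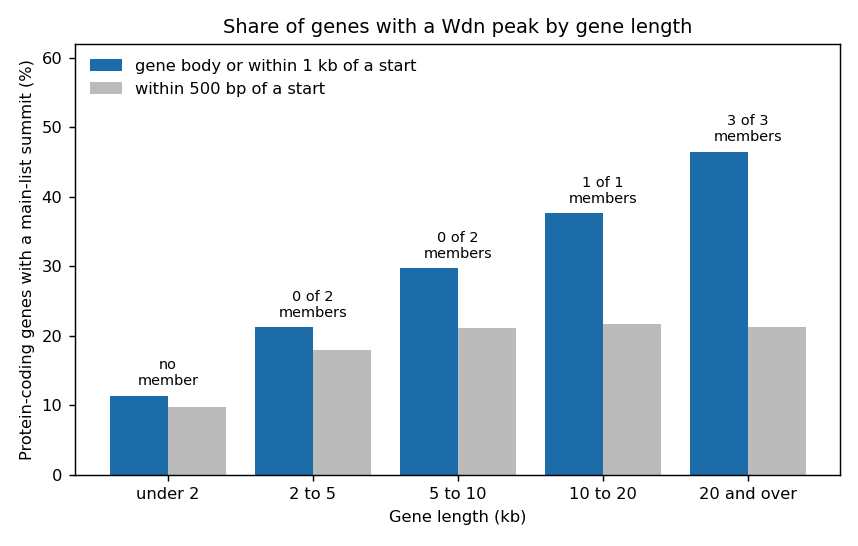
Percent of protein-coding genes with a main-list summit by gene length in kb, under the rule used here (blue) and within 500 bp of a transcript start (grey). The text over each pair of bars gives the members of that class that had a peak, 3 of 3 at 20 kb and over, 1 of 1 at 10 to 20 kb and 0 of 4 below 10 kb.

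At promoters, only brm had a main-list summit within 500 bp of a start, 1 of 8 genes against 12.3% of all genes. Among protein-coding genes the share was 18.0% to 21.7% over the length classes that hold a member. The other 8 of the 9 main-list summits lay in introns of osa, kis and trx, over 500 bp from the starts of their gene. Summits placed so far from the starts of their gene made up 42.7% over all protein-coding genes and 74.4% over those of 20 kb or more, the class of osa, kis and trx. The 9 peaks gave 0.655 peaks per 10 kb of member sequence, against 0.350 over protein-coding genes. For osa the density was 0.951, for kis 0.973 and for trx 0.407, against 0.190 over protein-coding genes of 20 kb or more. The kis value counts its strongest and its weakest peak apart, although they overlap by 102 bp. For brm it was 0.725, against 0.404 over those of 10 to 20 kb, and for ash1, ash2, mor and Utx it was 0. Ranked peaks of any strength stood at 14.3 per 10 kb at the members, against 10.5 over protein-coding genes. Of 197 ranked peaks at the members, 9 (4.57%) were in the main list, against 2.46% of all 132052 ranked peaks, which include those outside genes. By the same gene rule over protein-coding genes, 3924 of 118003 pairs of a ranked peak and a gene had a main-list peak. The 184 member peaks that did not pass had a median signal of 17.5, against 15.7 for all ranked peaks below the threshold. The signal value is the authors' own, with a scale that is not stated, and it is used only to rank peaks and describe them.

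Each replicate on its own gave the same 4 genes. The list of replicate 1 held 5 peaks at brm, osa, kis and trx, and that of replicate 2 held 6. All genes compare at 11.9% for replicate 1 and 11.7% for replicate 2. The conservative list, a second list from both replicates, also had a summit at these 4 genes, with 6 peaks, against 15.5% of all genes. Of the 9 main-list peaks, 4 overlapped a listed peak of both replicates, against 39.1% of all main-list peaks. Those 4 were the brm peak, the 2 stronger osa peaks and the listed trx peak, so kis had none.

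**Figure D3:**
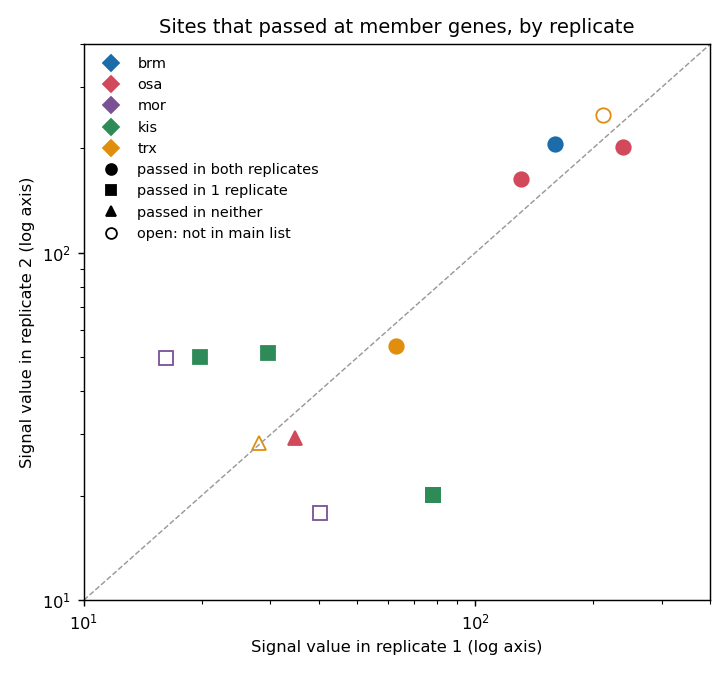
Signal value in replicate 2 against replicate 1 (both log axes) for the 13 passing sites at member genes, with gene by colour and open symbols for sites not in the main list. Circles passed in both replicates, squares in 1 and triangles in neither, and the dashed line marks equal values. The 5 circles hold the brm peak, 2 osa peaks and 2 trx peaks, and 2 kis sites share 1 point because the same replicate peaks overlap both.

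The brm gene (FBgn0000212, 3L, 15970082 to 15982869, minus strand) carried the single promoter peak of the main list. Its summit at 15983000 had a signal of 368, rank 89 of 3254, with 160 in replicate 1 and 205 in replicate 2. The replicate summits were 17 bp apart, and the -log10 global IDR reached its cap of 5 in all 4 ranked lists. The summit lay 131 bp upstream of the outer brm start and 135 bp upstream of Arl1, which encodes a small GTPase of the Golgi and is read in the opposite direction. Those starts are 266 bp apart, so the peak sat midway between them and cannot be given to either gene. The peak was narrow, at 181 bp against a median of 304 bp for the main list. Within 50 bp of its summit 82.2% of bases were A or T, the highest share among the 13 passing sites. No other ranked peak of brm passed. The nearest to passing was 5055 bp inside the gene, with a -log10 global IDR of 1.84.

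The osa gene (FBgn0261885, 3R, 17687818 to 17718350, minus strand) had 3 main-list peaks, all in its intron 4 and none at its promoter. The strongest had its summit at 17704391, 13959 bp downstream of the single start, and a signal of 435, rank 67 of 3254. Replicate 1 gave 240 and replicate 2 gave 202, with summits 30 bp apart. The next, at 17700530, had a signal of 290 and rank 152, with 131 in replicate 1 and 163 in replicate 2. Both peaks passed in every list. The weakest, at 17701119 and only 589 bp from the second, had a signal of 51.3 and rank 2845. Its values were 34.6 in replicate 1 and 29.3 in replicate 2, and it passed in neither (-log10 global IDR 1.71 and 1.86). In the sequence around that summit 42.6% of bases were A or T, the lowest share of the 13 sites.

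Long non-coding RNA genes on the opposite strand lay beside these osa peaks. The strongest summit was 696 bp downstream of the start of lncRNA:CR46035, within that gene. The second was 211 bp upstream of the start of lncRNA:CR46036 and the third 378 bp downstream of it. At the osa promoter itself the best ranked peak lay 50 bp downstream of the start with a signal of 44.0 and a -log10 global IDR of 1.82, below the threshold. Replicate 1 alone gave a peak at 17718301 in the 5' UTR with a signal of 41.9 that passed at 2.17, and this peak was not in the thresholded list of replicate 1.

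The kis gene (FBgn0266557, 2L, 210735 to 250823, minus strand) had the most main-list peaks of the members, 4, and all were weaker than the brm peak and the 2 stronger osa peaks. All lay in introns. The strongest summit, at 223512, was 1550 bp upstream of the inner of its 2 starts, at 221962, and had a signal of 98.5, rank 1095. A peak at 224905 had a signal of 79.4 and rank 1542, and one at 247926 had 70.4 and rank 1858. The last lay 2897 bp downstream of the outer start, in intron 1. The weakest, at 223714, overlapped the strongest by 102 bp, with summits 202 bp apart, and had a signal of 5.78 and rank 3230.

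No kis site passed in both replicates. The strongest had 78.2 in replicate 1 (-log10 global IDR 4.23) and 20.1 in replicate 2 (0.648). The site at 224905 had 29.5 in replicate 1 (0.846) and 51.6 in replicate 2 (3.21). For the site at 247926 the values were 19.8 in replicate 1 (0.355) and 50.3 in replicate 2 (2.90). So replicate 1 was high at 1 site and replicate 2 at the other 2, with no site high in both. Of the 4 sites, the conservative list kept 1, that at 224905. The strongest summit lay 7 bp upstream of the start of lncRNA:CR44222, a gene on the opposite strand inside kis.

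The trx gene (FBgn0003862, 3R, 14263358 to 14286903, minus strand) had 1 main-list peak and held the strongest peak of any member outside the main list. The listed peak had its summit at 14278126, 8777 bp downstream of the start, in intron 1 or 2 depending on the transcript. Its signal was 117, rank 826, with 62.7 in replicate 1 and 54.1 in replicate 2, and it passed in all lists with replicate summits 3 bp apart. The unlisted peak had its summit at 14283863, 3040 bp downstream of the start in intron 1. Its signal of 458 was the highest of all passing sites at the members, and it ranked 65 of the 3375 passing ranked peaks. Replicate 1 gave 212 and replicate 2 gave 249, with summits 5 bp apart and a -log10 global IDR at the cap of 5 in both. None of the 4 thresholded lists held it. A second unlisted peak, at 14286247 in the 5' UTR and 656 bp downstream of the start, had a signal of 49.0 and a -log10 global IDR of 2.13. Its values were 28.1 in replicate 1 and 28.4 in replicate 2, and it passed in neither.

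The mor gene (FBgn0002783, 3R, 15968134 to 15972913, minus strand) was absent from the main list, yet its ranked peaks included 2 passing ones. The summit at 15973041 had a signal of 63.6 and a -log10 global IDR of 2.09. It lay 128 bp upstream of the mor start and 257 bp upstream of Hel89B, a helicase gene read in the opposite direction, in the 385 bp between those starts. Replicate 1 gave 16.2 there (0.115) and replicate 2 gave 49.9 (2.70). The other summit, at 15973719, was inside Hel89B, 421 bp downstream of its start and 806 bp upstream of that of mor. It had a signal of 52.1 and a -log10 global IDR of 2.43, with 40.2 in replicate 1 (2.47) and 17.8 in replicate 2 (0.0916). Each mor site was thus high in a different replicate, and neither passed in the conservative ranked list, at 0.712 and 1.25.

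Passing peaks missing from the main list were rare over the genome. They made up 3.59% of the 3375 passing ranked peaks, 121 in all, and touched 0.498% of all genes by the rule used here, among them 2 of the 8 members. Arm 3R, which holds trx and mor, and also osa and ash2 without such a peak, had 59 of the 121. The share of this arm among all passing peaks is not given here. Besides those of mor, another unlisted peak lay near it, at 15974455 in Hel89B (signal 81.8). Listed peaks flanked the unlisted peaks of trx, at 14278126 within the gene and at 14288853, 1950 bp upstream of its start (signal 123). Why a passing peak was not listed is not given in the sources used here. Of the 301 bases around the strongest trx summit 15.0% were marked as repeats in the reference. The median was 15.0% over 113 of the unlisted passing peaks and 17.9% over main-list peaks. Whether repeats bear on the listing was not tested.

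The remaining members, ash1, ash2 and Utx, had no passing peak in any list. The best ranked peak of ash1 (FBgn0005386, 3L, 19590773 to 19598755, minus strand) lay 636 bp upstream of its start, with a signal of 37.6 and a -log10 global IDR of 0.685. For ash2 (FBgn0000139, 3R, 24650125 to 24653376, plus strand) it was 710 bp upstream of the outermost start, with a signal of 34.9 and 0.777. Utx (FBgn0260749, 2L, 10272325 to 10278811, minus strand) had no ranked peak in either list from both replicates or in that of replicate 2, and whether the lists as used here are complete there is not known. In replicate 1 it had 3, with signals of 11.8 to 16.7. A value below the threshold does not show that Wdn is absent. Just inside the threshold stood, in the main list, the weakest osa peak at a -log10 global IDR of 2.34 and, unlisted, the mor promoter peak at 2.09. Just outside were peaks of brm (1.84), osa (1.82) and trx (1.81). The last, at 14283269, passed in the conservative ranked list at 2.14 and was not in the conservative thresholded list.

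**Figure D4:**
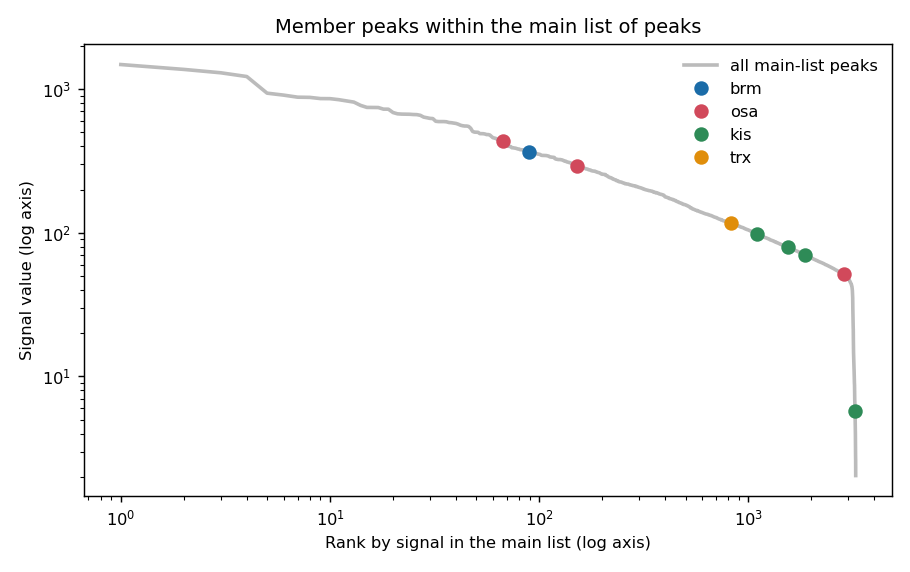
Signal value against rank by signal (both log axes) for all 3254 main-list peaks (grey line) and for the 9 peaks at member genes (coloured points). The 2 stronger osa peaks and the brm peak stand at ranks 67, 152 and 89, the trx and kis peaks lie from rank 826 downward, and the weakest kis peak is at rank 3230.

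By rank, 3 of the 9 member peaks were among the strongest 500 of the 3254 main-list peaks. With so few member peaks this is a description only. Their median signal was 98.5 against 76.6 for all main-list peaks. The sites differed in level and in replication. The strong sites of osa, brm and, unlisted, trx had signals of 290 to 458 and passed in both replicates. The listed trx peak, at 117, also did. All other sites were under 100, and each passed in at most 1 replicate.

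The sequences at the 13 passing sites were as rich in A and T as those of other peaks. Within 50 bp of the summit the share was 63.1% (SD 11.9, n = 13 sites), against 63.5% (SD 10.8, n = 3248) for main-list summits on the assembled chromosomes and 53.2% (SD 9.55) for 127248 ranked peaks outside the main list. Words were searched on both strands in the same 101 bases. CACAGTGG, CACTGTGC, TTAAAAAA, TATATTAA and AAAAATGT came from a search of these peaks. Their higher share in the main list than outside it is therefore no separate finding. The A and T word TTAAAAAA was found at the brm summit and at the kis summit at 224905. It was present at 5.85% of main-list summits and 1.34% of the ranked peaks outside the list. TATATTAA occurred at the mor promoter, once on each strand, against 3.14% of main-list summits and 0.557% of the others. CACAGTGG was at 2 kis summits, 223512 and 224905, against 1.63% and 0.481%. At the first of these it overlapped CACTGTGC read on the minus strand, a word in 1.85% of main-list summits and 0.497% of the others. The shorter CACAGTG, added after the member sequences were seen and contained in CACAGTGG, was also at brm, starting 48 bp before the summit, and occurred at 3.08% of main-list summits and 1.38% of the others. GAGAG, a core of the element bound by GAGA factor, was at 3 sites (the listed trx, the second mor and the strongest kis site), against 10.3% and 12.5%. The strong osa peaks and the unlisted trx peak, whose sequences are shown above, held none of these words. None of the 13 sites held the other words, which were TATCGATA (1.39% of main-list summits and 0.266% of the others), GGTCACACT (0.554% and 0.122%), CACGTG (0.954% and 1.42%), CAGCTG (3.85% and 5.73%) and AAAAATGT (4.16% and 1.47%).

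Genes related to the members by complex, enzyme class or group were also examined, 39 in 4 lists. By the same rule 15 of the 39 had a main-list summit, 13 of them within 500 bp of a start. Their median length was 5847 bp, and of protein-coding genes of 5 to 10 kb 29.7% had a summit by that rule and 21.2% within 500 bp of a start. The 39 genes ran from 655 to 40969 bp, over length classes with shares of 11.4% to 46.5%. The share of the class of a median length is therefore only a rough comparison, here and for each list. Of 7 other genes of the SWI/SNF complex, counted over all its forms, 1 had one (median length 2668 bp, in a class with 21.2%). This was Bap60 (signal 58.6, 83 bp upstream of its start), and it was listed in neither replicate. In the COMPASS family, which includes the complexes of Trx and Ash2, 3 of 12 had one, against 29.7% of the class that holds its median length. These were Rbbp5 (99.1, with 42.4 in replicate 1 and 61.4 in replicate 2), Ptip (84.9, listed in replicate 1 only) and trr (74.8, in neither). The genes of this list ran from 655 to 15617 bp. Set1 and Hcf, counted as without a summit, had no ranked peak at all, and whether the lists are complete there is not known.

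Among genes listed for other ATP-dependent remodellers, which take in ATPases like Kis and other subunits, 5 of 9 had a main-list summit. Their median length was 8162 bp, in the class with 29.7%. Mi-2 was the strongest at 247, in an intron 6916 bp from the nearest start, with 130 in replicate 1 and 118 in replicate 2. Ino80 had a promoter peak of 191 (73.6 and 115 in replicates 1 and 2), Chd1 one of 98.9 (50.4 and 46.4), and Acf one of 72.4 listed in replicate 1 only. Of other trithorax group or interacting genes, 6 of 11 had one, with a median length of 10102 bp and a share of 37.6% among protein-coding genes of 10 to 20 kb. That median is near the lower edge of its class, and the class below it had 29.7%. Trl, the gene for GAGA factor, had 6 peaks, the strongest in an intron at rank 18 with 319 in replicate 1 and 399 in replicate 2. The coactivator gene nej had one of 156, 727 bp upstream of its nearest start (86.6 and 72.4). A tna peak of 116 was listed in replicate 1 only, and a lolal peak of 94.2 was listed in both (48.5 and 47.7). None of the 39 genes had a passing peak that the main list lacks.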

How the data were processed

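Peak lists on dm6 were used, per the deposited file texts, which call them IDR thresholded, conservative IDR thresholded and IDR ranked peaks. No software for alignment or peak calling is given in the sources used here. The deposited signal value of each peak is the authors' own, on a scale that is not stated. As deposited, the ranked lists also carry a -log10 of the global IDR with a cap of 5. Each ranked list went with the thresholded list that it held whole among its passing peaks. In each ranked list 8 columns of per-sample values have no sample label and were not used.

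Summits were placed on Ensembl release 115 genes of the assembled chromosomes, transposable elements left out, with Python 3.11.15, numpy 2.4.6 and pandas 2.3.3. Figures were drawn with matplotlib 3.10.9. Sequences came from the RefSeq genome of the same assembly, whose chromosome lengths held every peak. The value of a replicate at a site is that of its overlapping ranked peak with the nearest summit. Placement was tested on simulated data. Named were all members with every passing site, or else their best ranked peak, and of each related list up to 4 genes by signal. The members, lists and words were chosen with earlier results of these data known, and the words CACAGTGG, CACTGTGC, TTAAAAAA, TATATTAA and AAAAATGT came from a search of these peaks. With 1 group of 2 biological replicates no test was made, and counts stand beside those over all genes or peaks. Alternatives covered the list, each replicate, the IDR, the window and the overlap.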

Additional observations from a re-analysis of the deposited data

How the results depend on the processing

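Of 37 alternative values for 6 counts, 31 stayed within 1.5 times the reported count. With transcript starts only, in a window of 1 kb, 1 member gene (brm) with 1 peak was left, in place of 4 genes with 9 peaks, since the gene bodies were no longer counted. Without replicate 1 or 2 the number of member peaks was 6 and 5, and that of related genes with a peak 9 and 12 in place of 15, where leaving out replicate 1 gave the lower number. Adding the passing peaks that the main list lacks gave 2 members, brm and mor, with a promoter summit in place of 1. Only 1 of the 4 unlisted peaks, the strongest at trx, had a -log10 global IDR of at least 3. The genes brm, osa, kis and trx had a peak in the conservative list, at the stricter IDR, in each replicate alone and by overlap of the whole peak. At kis, replicates 1 and 2 listed different peaks, and no site passed in both. With an unknown depth, a missing peak cannot be told from low coverage. No paired analysis was possible because there was 1 group.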

Other observations

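The strongest peak of the whole main list lay just past the 3' end of ash1 and outside the rule used here. Its summit at 19590618 on 3L (signal 1483, rank 1) was 155 bp beyond the end of ash1 and 94 bp upstream of the start of CG14100, in the 249 bp between those genes. The nearest main-list summit to ash2 was 77463 bp away.

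Among the 8 main-list summits inside member genes and over 500 bp from their starts, 4 lay within 500 bp of the start of a non-coding RNA gene on the opposite strand, lncRNA:CR46036 in osa or lncRNA:CR44222 in kis. The same held for 23 of 1302 such main-list summits (1.77%) over all protein-coding genes, members included, and for 0.891% of 81386 ranked peaks outside the list. This pattern was chosen after its values were seen, rests on 2 non-coding RNA genes with 2 neighbouring peaks each, and was not tested.

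Utx lay in a stretch of 2L that replicates 1 and 2 ranked differently. The ranked list of replicate 2 held no summit over 77061 bp around it, a spacing reached by 16 of 84148 intervals between its summits on the large arms, which have a median of 969 bp. In the same stretch replicate 1 ranked 44 peaks, 1 of them thresholded (signal 49.6), and the main list held 3 with signals up to 69.1, while the conservative list held none. Whether the list of replicate 2 as used here is complete over this stretch is not known, so the spacing and the count of 0 at Utx may not be a measurement of binding. The cause was not tested.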
